A study of Rattus norvegicus with 6 samples.

Results

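The TNF ligand and receptor superfamilies were followed in lung RNA of rats with and without bleomycin-induced pulmonary fibrosis (PF). The members were chosen by name: every gene called Tnfsf or Tnfrsf with a number and at most 1 letter, together with Tnf, Lta, Ltb, Ltbr, Fas, Faslg, Cd27, Cd40, Cd40lg and Cd70. This gave 36 genes, 16 ligands and 20 receptors, of 21210 gene names with an annotated transcript, and 80 of the 70376 transcripts in the table. The names Tnfsf11, Tnfrsf4 and Tnfrsf10b were not among the gene names and were not analysed here. Libraries were made from lungs of 3 control and 3 PF model Sprague-Dawley rats, 7 weeks old at the start. The model rats had a single instillation of bleomycin into the trachea at 7 mg/kg, the controls had saline, and both groups were killed on day 28. RNA depleted of rRNA was sequenced as paired reads of 150 bases, and levels were deposited as FPKM, fragments per kilobase of transcript scaled to the total of the library, which were summed over the transcripts of a gene. FPKM are scaled by length, so levels of different genes can be set side by side as sums. The sums include assembled fragments inside introns and past gene ends, which make up most of the sum for some members. Their order is therefore not that of the mature mRNA alone.

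TNF superfamily ligands are mostly trimers anchored in the membrane of immune and epithelial cells, and some are cut off and act at a distance. Their receptors carry repeats rich in cysteine outside the cell and fall into groups by what they bind inside. Receptors with a death domain, such as Fas and Tnfrsf1a, can start apoptosis, and most others recruit TRAF adaptors and signal mainly to NF-kB and MAP kinases. In the lung, TNF and FAS ligand have long been studied in injury of the alveolar epithelium and in bleomycin models, while many other members serve as costimulatory signals between lymphocytes.

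The libraries held between 35778600 and 41112700 estimated reads in transcripts and between 18937 and 19071 gene names above 0. The labelled tissue was checked against markers of lung cells: the 4 alveolar type 2 markers (Sftpa1, Sftpb, Sftpc and Sftpd) summed to between 4134 and 6424 FPKM, and the 3 alveolar type 1 markers (Ager, Hopx and Aqp5) to between 428 and 615 FPKM. Heart muscle genes stood apart in model sample 3, where Myh6, Tnnt2, Myl7 and Actc1 summed to 25.5 FPKM, against 5.79 to 10.4 FPKM in the other libraries. Among the fibroblast and matrix genes checked, 4 were higher in model lungs and 1 was lower. The lower gene was Pdgfra, with a mean of 26.1 FPKM in controls and 24.9 in model lungs. When values were rescaled to the same sum in every library, all 5 were higher. Of 5 fibroblast and matrix genes (Col1a1, Col1a2, Col3a1, Pdgfra and Fn1), Col3a1 had unadjusted p = 0.0365 in the limma fit over all genes, with a mean of 169 FPKM in controls and 208 in model lungs, and none was called.

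The stretches of sequence around the start sites are shown for 4 members, the ligand gene Tnf that gives the family its name and the 3 genes with the smallest p (Tnfrsf17, Faslg and Tnfrsf9). They were taken from RefSeq on the GRCr8 assembly, and 27 of the 36 members had an entry. Each runs from 250 bases before to 50 bases after the start of the gene, 5′ to 3′ on the strand of the gene, and capitals mark GGG and CC with any 5 bases between them, searched on both strands, a loose form of the NF-kB motif:
Tnfrsf17 (GRCr8 chr10:4813723-4814022, minus strand): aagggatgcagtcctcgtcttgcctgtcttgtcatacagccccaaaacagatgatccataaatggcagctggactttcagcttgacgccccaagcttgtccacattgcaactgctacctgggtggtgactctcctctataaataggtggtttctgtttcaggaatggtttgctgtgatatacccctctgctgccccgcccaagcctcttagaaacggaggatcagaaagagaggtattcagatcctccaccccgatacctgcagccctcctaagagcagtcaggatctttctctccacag
Faslg (GRCr8 chr13:76695454-76695753, minus strand): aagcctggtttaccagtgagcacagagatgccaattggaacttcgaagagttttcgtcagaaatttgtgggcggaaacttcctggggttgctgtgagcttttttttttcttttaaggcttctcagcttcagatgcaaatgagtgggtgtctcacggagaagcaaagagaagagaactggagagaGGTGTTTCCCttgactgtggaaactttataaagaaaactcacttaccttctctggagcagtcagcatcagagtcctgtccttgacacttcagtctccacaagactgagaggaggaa
Tnfrsf9 (GRCr8 chr5:166664244-166664543, plus strand): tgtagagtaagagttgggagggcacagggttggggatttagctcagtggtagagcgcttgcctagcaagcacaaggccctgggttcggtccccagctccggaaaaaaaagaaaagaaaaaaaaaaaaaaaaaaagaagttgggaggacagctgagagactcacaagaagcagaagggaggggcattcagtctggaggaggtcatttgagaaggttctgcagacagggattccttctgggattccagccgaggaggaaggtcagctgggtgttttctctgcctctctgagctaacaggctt
Tnf (GRCr8 chr20:3626435-3626734, plus strand): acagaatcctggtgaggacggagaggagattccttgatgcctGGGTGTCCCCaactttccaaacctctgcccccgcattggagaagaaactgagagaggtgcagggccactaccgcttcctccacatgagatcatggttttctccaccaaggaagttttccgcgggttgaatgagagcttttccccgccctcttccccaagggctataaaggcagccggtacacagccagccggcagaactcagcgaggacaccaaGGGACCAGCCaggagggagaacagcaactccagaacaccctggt

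Tnf held 2 matches, which began 208 bases before the start and at base 7 of the transcript, and Faslg held 1, which began 66 bases before the start. The windows of Tnfrsf17 and Tnfrsf9 held none of these letters. The motif was found in 16 of the 27 members with an entry, a share of 59.3%, and in 48.5% of all 27457 promoters of the same length, so it is common in any window of 300 bases. A match of letters is a description of the window and does not show binding.

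Mean levels of the members ran from 0.0151 FPKM (Cd70) to 28.6 FPKM (Tnfrsf1a), and 20 of them had a mean of at least 1 FPKM over the 6 libraries. Receptors were more often above that level: 14 of 20 receptors and 6 of 16 ligands. Tnfrsf13b and Tnfrsf18 reached it only with fragments. Their annotated transcripts had control and model means of 0.635 and 0.907 FPKM (Tnfrsf13b) and 0.880 and 0.741 FPKM (Tnfrsf18). The 6 members above 10 FPKM were Tnfrsf1a, Tnfsf10, Ltbr, Tnfsf12, Tnfrsf1b and Tnfsf13. Summed over the family, ligands came to between 58.9 and 68.5 FPKM per library and receptors to between 111 and 126 FPKM, and the ranges of control and model libraries overlapped for both sums.

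**Figure D1:**
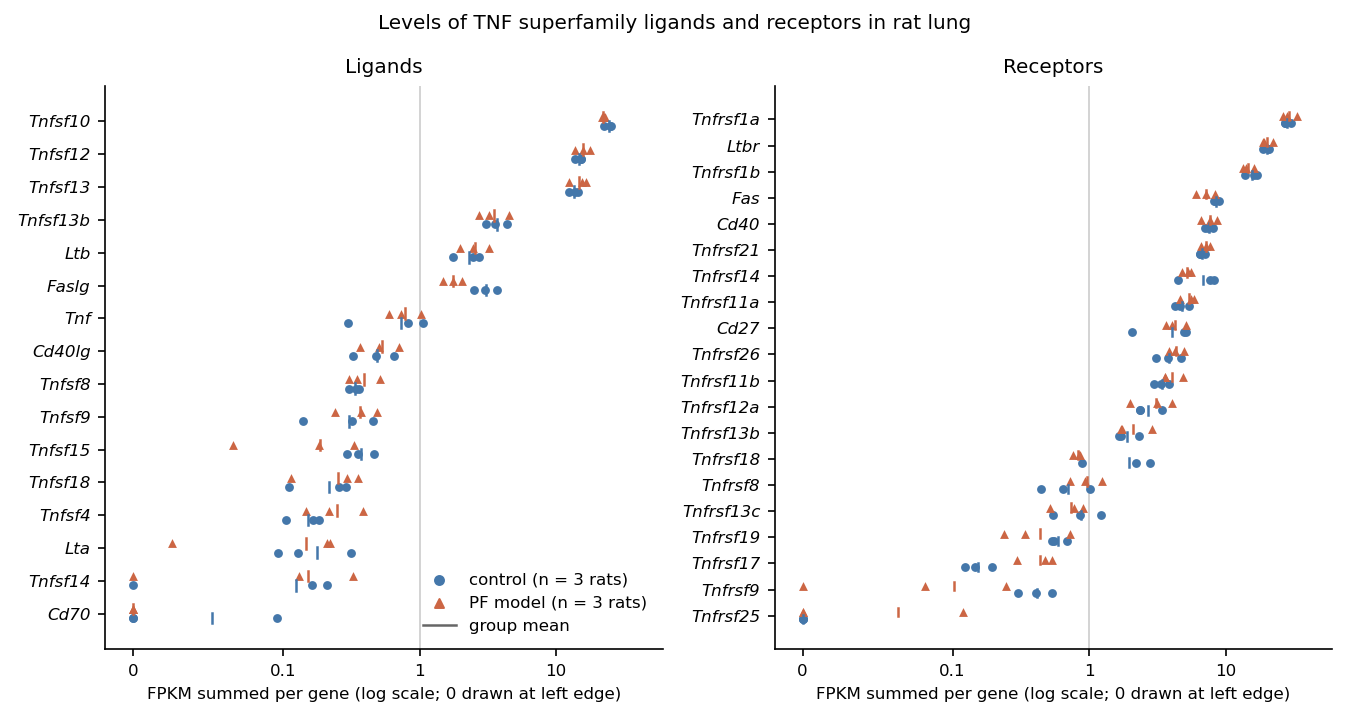
FPKM of each of the 36 members in each library, on a log axis with 0 drawn at the left edge. Circles are control libraries, triangles PF model libraries and vertical ticks group means, with ligands on the left and receptors on the right. Means over all libraries run from under 0.1 FPKM for Cd70 and Tnfrsf25 to 28.6 FPKM for Tnfrsf1a, and the groups lie over each other for most members.

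Tnfrsf1a, the death-domain receptor of TNF found on most cells, was the member with the highest level. It was 30.1, 27.0 and 27.1 FPKM in control samples 1 to 3 and 26.4, 28 and 33.3 FPKM in model samples 1 to 3. The groups overlapped, and the limma difference in log2(FPKM + 1), model minus control, was 0.05 with a 95% interval from -0.20 to 0.30. Ltbr, the receptor of lymphotoxin on stromal and epithelial cells, was 18.9, 20.4 and 20.7 FPKM in controls and 18.8, 18.9 and 22.3 FPKM in model samples. Its difference was 0.00 on the same scale, with a 95% interval from -0.22 to 0.22. Tnfrsf1b, the TNF receptor without a death domain that is found mainly on leukocytes and endothelium, was 13.8, 16 and 16.9 FPKM in controls and 14, 13.4 and 16.1 FPKM in model samples, and these overlapped too.

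All 11 members with a mean of at least 5 FPKM had a log2 ratio of group means between -0.37 and 0.17, and none of them reached an unadjusted p of 0.05. Their coefficient of variation over the 6 libraries had a median of 9.64%, and that of the 14 tested members under 1 FPKM a median of 41.0%. Within the 11, fragments inside introns or past the gene end made up 74.9% of the sum of Cd40, 64.1% of Fas and 62.9% of Tnfrsf11a.

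Across the 34 members that could be tested, with FPKM above 0 in at least 3 libraries, 3 passed the study's thresholds of an unadjusted p of at most 0.05 and a 2-fold ratio of group means. That is 8.82% of the members tested, where the background over all 19203 gene names tested was 1.53%. Tnfrsf17 was higher in model lungs (background for higher 0.687%) and Tnfrsf9 and Tnfrsf18 were lower (background for lower 0.838%). With Faslg, 4 of 34 members had an unadjusted p of at most 0.05, or 11.8% beside 4.9% of all genes. No member had a Benjamini-Hochberg adjusted p below 0.05 in limma, where the smallest adjusted p of a member was 0.934 and 2 of all genes passed (0.0104%). The groups did not overlap for 4 members (Tnfrsf17, Tnfrsf9, Tnfrsf18 and Faslg), a share of 11.8% beside 10.7% of all genes. Of the members tested, 21 had a difference above 0 and 13 below, with a median of 0.04 on the log2(FPKM + 1) scale beside -0.01 over all genes (0.11 beside 0.05 after rescaling to TPM, in which the values of every library have the same sum). Cd70 and Tnfrsf25 were above 0 in a single library each (0.0906 FPKM in control sample 3 and 0.119 FPKM in model sample 1) and were not tested.

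**Figure D2:**
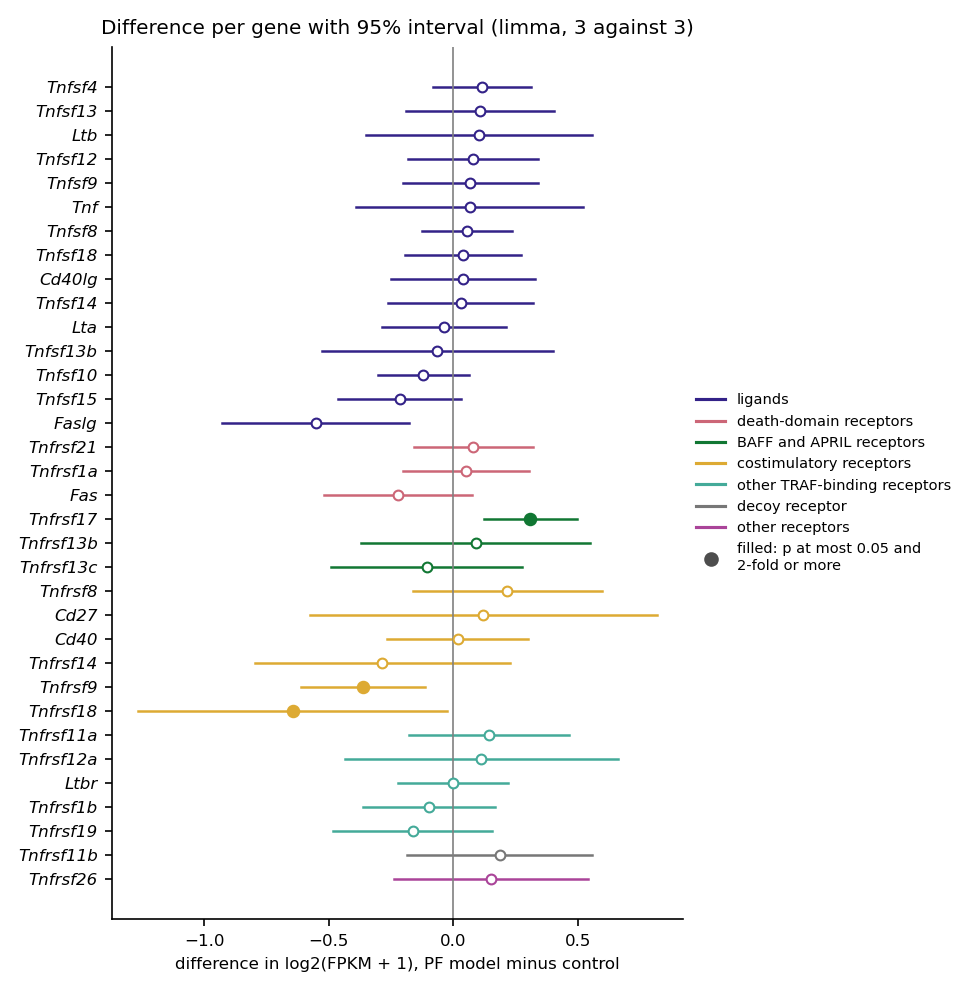
Difference in log2(FPKM + 1), PF model minus control, for the 34 members tested, with 95% intervals from limma and colours for role groups. Filled points (Tnfrsf17, Tnfrsf9 and Tnfrsf18) passed an unadjusted p of at most 0.05 and a 2-fold ratio of means. The interval of Faslg also lies below 0, and all other intervals cross it.

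Tnfrsf17 encodes BCMA, the receptor of APRIL and BAFF that is characteristic of plasma cells. The gene lies on chromosome 10 from 4251941 to 4257868 on the minus strand in the coordinates of the files, whose genome build is not named. A lone annotated transcript with 3 exons carried its level. It was 0.194, 0.124 and 0.145 FPKM in control samples and 0.298, 0.473 and 0.530 FPKM in model samples. Every model sample lay above every control, and the mean was 2.81-fold higher in model lungs (0.154 ± 0.036 against 0.434 ± 0.121 FPKM, SD, n = 3 each). The limma difference was 0.31 ± 0.08 (SE) on the log2(FPKM + 1) scale, with unadjusted p = 0.00638 and adjusted p = 0.934. These levels rest on few reads, an estimated 8.7, 5.1 and 6.8 in controls and 13.9, 20.1 and 23.6 in model samples.

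None of the 6 plasma cell markers tested (Jchain, Mzb1, Sdc1, Prdm1, Irf4 and Pou2af1) had p of at most 0.05, and 2 were higher and 4 lower in model lungs, or 4 higher and 2 lower after rescaling to TPM. Their sum was between 85.0 and 85.9 FPKM in controls and between 75.7 and 103 FPKM in model samples. Among model samples, model sample 1 was lowest for both this sum and Tnfrsf17. Its marker sum (75.7 FPKM) lay below every control, and its Tnfrsf17 (0.298 FPKM) above every control. None of the 6 markers was at 0 in any library, and their part in the difference of Tnfrsf17 was not tested. In tissue RNA, more cells of a type and more RNA per cell cannot be told apart.

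The other receptors of this branch are TACI (Tnfrsf13b), found on B cells and plasma cells, and the BAFF receptor (Tnfrsf13c), needed for the survival of mature B cells. Tnfrsf13b was 1.64, 2.34 and 1.71 FPKM in controls and 1.70, 1.73 and 2.90 FPKM in model samples. Tnfrsf13c was 0.548, 1.23 and 0.860 FPKM in controls and 0.521, 0.778 and 0.900 FPKM in model samples. Both overlapped between the groups, and the limma differences were 0.09 (95% interval -0.37 to 0.55) and -0.11 (-0.49 to 0.28). Of the Tnfrsf13b signal, 61.5% came from an assembled stretch of 1476 bases that starts 323 bases past the annotated end.

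The ligands of these receptors, which support the survival of B cells and plasma cells, had higher mean levels (14.1 FPKM for Tnfsf13 and 3.58 FPKM for Tnfsf13b, beside 2 FPKM for Tnfrsf13b and 0.806 FPKM for Tnfrsf13c). Tnfsf13, which encodes APRIL, was 14.4, 13.7 and 12.5 FPKM in controls and 16.4, 12.3 and 15.5 FPKM in model samples. Tnfsf13b, which encodes BAFF, was 3.04, 4.38 and 3.57 FPKM in controls and 3.21, 2.73 and 4.55 FPKM in model samples. Neither separated the groups, and the limma differences were 0.11 (95% interval -0.19 to 0.41) and -0.06 (-0.53 to 0.40).

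**Figure D3:**
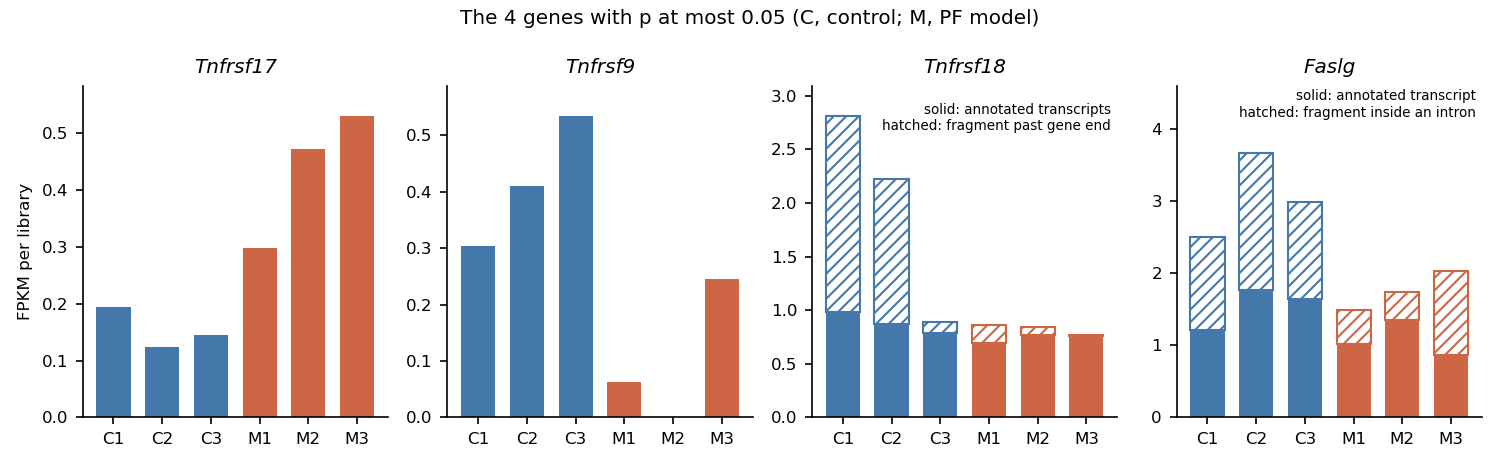
FPKM per library of the 4 members with an unadjusted p of at most 0.05, for control (C, blue) and PF model (M, orange) samples. Solid bars are annotated transcripts and hatched bars are assembled fragments past the gene end (Tnfrsf18) or inside an intron (Faslg). The high Tnfrsf18 bars of controls 1 and 2 are mostly hatched.

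Among the costimulatory receptors of lymphocytes, 2 of 6 were called, both lower in model lungs, where 0.838% of all genes were called lower. The call of Tnfrsf18 rested on a fragment past the gene end and was lost in 9 of 17 alternatives. Tnfrsf9 encodes CD137, which activated T cells and NK cells display. It was 0.303, 0.410 and 0.534 FPKM in controls and 0.0625, 0 and 0.245 FPKM in model samples. Every model sample lay below every control, and the mean was 4.05-fold lower (0.416 ± 0.116 against 0.103 ± 0.128 FPKM, SD, n = 3 each). The log2 ratio of means, -2.02, was -3.73 without model sample 3 and -1.43 without model sample 2. The limma difference was -0.36 ± 0.10 (SE), with unadjusted p = 0.0111 and adjusted p = 0.934. It rested on an estimated 19.4, 24.2 and 34.5 reads in controls and 4.0, 0 and 15.6 in model samples. In control sample 3 most of the signal was assigned to the second annotated transcript (0.335 of 0.534 FPKM), and in controls 1 and 2 all of it to the first.

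Tnfrsf18 encodes GITR, known from regulatory T cells. Its summed level was 2.81, 2.22 and 0.888 FPKM in controls and 0.863, 0.839 and 0.766 FPKM in model samples. Controls 1 and 2 were high, and control 3 lay just above model sample 1. The limma difference was -0.65 ± 0.26 (SE), with unadjusted p = 0.0435 and adjusted p = 0.934. Most of the difference lay in an unspliced fragment of 266 bases on chromosome 5 (173463211 to 173463476), 71 bases past the annotated end, with no strand assigned. This fragment was 1.83, 1.35 and 0.0969 FPKM in controls and 0.169, 0.0667 and 0.0104 FPKM in model samples, and the groups overlapped. The annotated transcript of 5 exons was 0.980, 0.868 and 0.791 FPKM in controls and 0.694, 0.772 and 0.756 FPKM in model samples. For this transcript every model sample lay below every control. With annotated transcripts alone the gene was not called (limma log2 difference -0.11, unadjusted p = 0.335). Leaving out any library other than control sample 3 also ended the call (unadjusted p between 0.0821 and 0.119).

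The other 4 costimulatory receptors tested showed no separation. Cd40, the receptor through which T cells license B cells and macrophages, was 7.48, 8.01 and 7.02 FPKM in controls and 7.63, 6.64 and 8.65 FPKM in model samples. As much as 74.9% of this sum came from 3 fragments inside introns, and its annotated transcript was between 1.64 and 2.26 FPKM in all 6 libraries. Cd27, a receptor on T cells and memory B cells, ranged from 2.06 to 5.12 FPKM, with control sample 3 lowest. Tnfrsf14, which encodes the receptor HVEM, ranged from 4.45 to 8.24 FPKM, and Tnfrsf8, which encodes CD30, from 0.442 to 1.25 FPKM.

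T cell markers were measured beside these receptors. None of the 7 markers (Cd3d, Cd3e, Cd3g, Cd4, Cd8a, Lck and Cd247) had p of at most 0.05, with 2 higher and 5 lower in model lungs, and 5 higher and 2 lower after rescaling to TPM. Their sum was between 25.4 and 44.8 FPKM in controls and between 34.0 and 44.9 FPKM in model samples. Control sample 1 had the lowest sum of T cell markers. Among controls it was highest for Tnfrsf18 (2.81 FPKM, of which 1.83 FPKM was the fragment past the gene end). It was the lowest control for Tnfrsf9 (0.303 FPKM) and Faslg (2.51 FPKM). The part of T cell content in Tnfrsf9, Tnfrsf18 or Faslg was not tested.

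Fas ligand, made by cytotoxic lymphocytes and NK cells, triggers apoptosis through Fas. Faslg was 2.51, 3.67 and 2.99 FPKM in controls and 1.49, 1.74 and 2.03 FPKM in model samples. Every model sample lay below every control, and the mean was 1.74-fold lower (3.06 ± 0.58 against 1.76 ± 0.27 FPKM, SD, n = 3 each). The limma difference was -0.55 ± 0.16 (SE), with unadjusted p = 0.0106 and adjusted p = 0.934, and the ratio of means did not reach 2-fold. Of the sum, 45.7% came from a fragment of 538 bases inside an intron, on the strand of the gene (chromosome 13, 79703982 to 79704519). This fragment was 1.30, 1.90 and 1.35 FPKM in controls and 0.481, 0.395 and 1.17 FPKM in model samples, and it was called in the limma fit over transcripts (log2 difference -0.60, unadjusted p = 0.0396). The annotated transcript of 4 exons was 1.21, 1.78 and 1.64 FPKM in controls and 1.01, 1.35 and 0.860 FPKM in model samples, which overlapped (unadjusted p = 0.146). With annotated transcripts alone, the gene had unadjusted p = 0.126 and a log2 difference of -0.29.

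Its receptor Fas, which many epithelial cells carry, was 8.19, 8.35 and 8.97 FPKM in controls and 8.33, 6.08 and 7.18 FPKM in model samples. Model samples 2 and 3 were the lowest, and model sample 1 lay among the controls. The limma difference was -0.22 (95% interval -0.52 to 0.08), and 64.1% of the sum came from 2 fragments inside introns and 1 past the gene end. The annotated transcript of Fas was between 2.30 and 3.23 FPKM. Leaving out each library in turn gave differences between -0.32 (unadjusted p = 0.0428, without model sample 1) and -0.12 (unadjusted p = 0.336, without model sample 2) in limma.

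Tnf, the cytokine that activates endothelium and macrophages, was scarce. It was 0.299, 1.06 and 0.816 FPKM in controls and 0.725, 1.03 and 0.598 FPKM in model samples, with the lowest value in control sample 1. The groups overlapped, and the limma difference was 0.07 (95% interval -0.39 to 0.52). Lta, which encodes lymphotoxin alpha, was 0.129, 0.0919 and 0.312 FPKM in controls and 0.0154, 0.221 and 0.209 FPKM in model samples. Ltb, whose product joins lymphotoxin alpha in the membrane complex that binds Ltbr, was 1.74, 2.71 and 2.45 FPKM in controls and 1.97, 2.45 and 3.24 FPKM in model samples. Neither lymphotoxin gene separated the groups (log2 differences -0.04 and 0.10), although Lta lies 1152 bases and Ltb 2888 bases from Tnf on chromosome 20.

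Tnfsf10, which encodes TRAIL, was the ligand with the highest level. It was 24.7, 22.5 and 25.4 FPKM in controls and 21.5, 22.2 and 22.7 FPKM in model samples, and the limma difference was -0.12 (95% interval -0.30 to 0.06). Model sample 3 lay above control sample 2, so the groups overlapped. Tnfsf12, which encodes TWEAK, was 15.2, 15.2 and 13.8 FPKM in controls and 15.6, 13.7 and 17.7 FPKM in model samples. Its receptor Tnfrsf12a, known to rise on injured epithelium, was 2.34, 2.37 and 3.43 FPKM in controls and 3.12, 4.07 and 2.01 FPKM in model samples. Both overlapped, with limma differences of 0.08 (95% interval -0.18 to 0.34) and 0.11 (-0.44 to 0.66).

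Tnfrsf11a encodes RANK, the receptor that drives osteoclasts, and Tnfrsf11b encodes osteoprotegerin, the soluble decoy that captures the RANK ligand. Tnfrsf11a was 4.61, 5.40 and 4.25 FPKM in controls and 5.54, 5.87 and 4.66 FPKM in model samples. Tnfrsf11b was 3.83, 2.98 and 3.37 FPKM in controls and 4.90, 3.56 and 3.58 FPKM in model samples. Model sample 1 was highest for the decoy, and the groups overlapped for both, with limma differences of 0.14 (95% interval -0.18 to 0.46) and 0.19 (-0.19 to 0.56). Of the Tnfrsf11a sum, 62.9% came from 2 fragments inside introns. Its annotated transcript was 1.43, 1.46 and 2.01 FPKM in controls and 2.05, 2.29 and 2.03 FPKM in model samples, where every model sample lay above every control. The transcript had a limma difference of 0.26 with unadjusted p = 0.144, and the gene had unadjusted p = 0.0501 when the sum was weighted by length. With Tnfrsf26 these were the 3 members of at least 1 FPKM with the smallest p among those higher in model lungs, and none reached an unadjusted p of 0.05 (0.272 to 0.381 in limma). Tnfrsf26, a receptor described in rodents, was 3.78, 3.09 and 4.67 FPKM in controls and 3.86, 4.24 and 4.96 FPKM in model samples. Its sign depended on the transcripts counted: the intronic fragment was higher in model lungs (log2 difference 0.57, unadjusted p = 0.110), and the main annotated transcript lower (log2 difference -0.15, unadjusted p = 0.217).

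The remaining ligands act mostly between lymphocytes and antigen-presenting cells and had means under 1 FPKM. Cd40lg, the ligand of Cd40 on helper T cells, was 0.324, 0.481 and 0.654 FPKM in controls and 0.504, 0.711 and 0.365 FPKM in model samples. Tnfsf4 (OX40 ligand), Tnfsf8 (CD30 ligand), Tnfsf9 (CD137 ligand), Tnfsf14 (LIGHT) and Tnfsf18 (GITR ligand) were between 0 and 0.512 FPKM in all libraries, and none had p of at most 0.05. Tnfsf15, which encodes TL1A, was 0.466, 0.354 and 0.295 FPKM in controls and 0.330, 0.0433 and 0.184 FPKM in model samples. Model sample 1 lay among the controls, and the mean was 2-fold lower in model lungs with an unadjusted p = 0.0764 in limma, so it was not called. Tnfrsf21 (DR6) and Tnfrsf19 (TROY) complete the receptors, at 6.47 to 7.70 and 0.239 to 0.722 FPKM.

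At the level of transcripts, 43 of the 80 rows were annotated, 23 were splice variants assembled from these libraries, 11 were fragments inside an intron and 3 were fragments that may run on past a gene end. These 14 fragments touched 9 of the 36 members. Of the 11 intronic fragments, 9 lay on the other strand or had no strand, among them 1 of 2304 bases in Tnfrsf1b. That fragment, on the plus strand of chromosome 5 (163153352 to 163155655) opposite to the gene, was 3.95, 4.33 and 4.44 FPKM in controls and 3.37, 3.18 and 3.58 FPKM in model samples. The groups did not overlap, and the limma difference was -0.26 with unadjusted p = 0.0489 and a ratio under 2-fold. Whether the authors used strand in counting is not stated in the sources used here, so reads of opposite strands may not have been kept apart. Of 71 member transcripts tested, 2 were called (the Tnfrsf17 transcript and the intronic Faslg fragment), a share of 2.82% beside 2.98% of all 64867 transcripts. The background was 1.22% for higher and 1.76% for lower transcripts. None passed an adjusted p of 0.05 in limma (0.0277% of all transcripts did), 3 of 71 had an unadjusted p of at most 0.05 (4.53% of all), and the groups did not overlap for 10 of 71, 14.1% beside 10.4% of all transcripts.

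Several abundant members kept their summed level while its estimated division among isoforms changed from library to library. Of 13 members with 2 or more spliced isoforms, 7 had a different leading isoform in some libraries and 6 had the same in all. Tnfsf10 had 7 spliced isoforms that summed to between 19.6 and 23.4 FPKM, a coefficient of variation of 6.73%. Its annotated transcript, however, was 0.643, 3.63 and 19.5 FPKM in controls and 6.86, 12.7 and 7.73 FPKM in model samples. In control sample 1 an assembled isoform with a later start held 16.1 FPKM, which was at most 1.80 FPKM in any other library, and in control sample 2 another held 13.7 FPKM. No Tnfsf10 isoform had p of at most 0.05.

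Tnfsf13b also changed its leading isoform, with 3 leading isoforms among 4, but its spliced sum varied more. That sum was between 2.73 and 4.55 FPKM, a coefficient of variation of 20.6%. Its annotated transcript of 7 exons was 0.194, 3.31 and 0.0931 FPKM in controls and 3.21, 0.251 and 4.28 FPKM in model samples. The assembled isoform of 6 exons held 3.48 FPKM in control sample 3 and 2.36 FPKM in model sample 2 and was 0 in the other libraries. The leading isoform held between 75.5% and 99.9% of the spliced signal in each library, and which isoform it was differed among libraries of the same group. Ltbr had its annotated transcript at 8.62, 14 and 13.7 FPKM in controls and 8.70, 2.90 and 14.1 FPKM in model samples. In model sample 2 an assembled isoform of 11 exons held 9.22 FPKM, and it was between 0.148 and 0.519 FPKM in the others. Tnfsf12 was divided between an annotated and an assembled isoform of 7 exons each, and the assembled isoform ranged from 0.0433 to 9.62 FPKM. Cd27 had 4 leading isoforms over the 6 libraries, and its sum varied too (2.06 to 5.12 FPKM, a coefficient of variation of 28.6%). By contrast, Tnfrsf1a had its annotated transcript in the lead throughout, at 18 to 26 FPKM and 66.7% to 82.2% of the spliced signal.

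**Figure D4:**
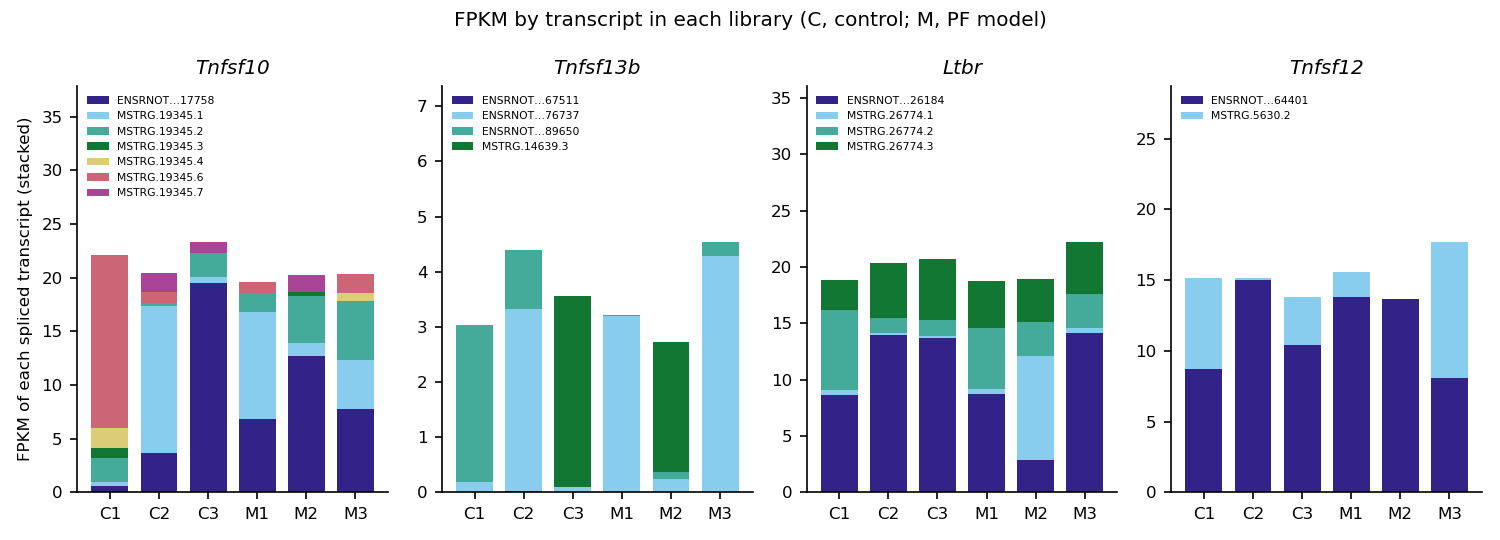
FPKM of each spliced transcript of Tnfsf10, Tnfsf13b, Ltbr and Tnfsf12, stacked per library (C, control; M, PF model), with annotated transcripts named by their Ensembl number. The height of the bars varies little for Tnfsf10 and Ltbr, while the colours that fill them change between libraries of the same group.

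Members lay close together on several chromosomes. In the coordinates of the files, 10 pairs of neighbours lay within 100 kb of each other and held 17 of the 36 genes, and chromosome 5 held 8 members. Tnfsf13 and Tnfsf12 lay 828 bases apart on chromosome 10, with similar levels (means of 14.1 and 15.2 FPKM). Cd27, Ltbr and Tnfrsf1a lay in a row on chromosome 4, with means of 4.14, 20.0 and 28.6 FPKM. Of the called genes, none had another of the 36 members within 100 kb. Distances to family genes that were not among the gene names, such as Tnfrsf4, were not measured. The circular RNAs held 1 entry with a member as its host gene, a circle of 2 exons of Tnfrsf21 with 2 back-splice reads in model sample 3 and 0 in the other 5 libraries, under the minimum of 10 reads for a test.

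Genes around the members were measured as lists beside them. The lists covered adaptors and ubiquitin enzymes, the NF-kB pathway, cell death and shedding. They also covered genes known to be induced by TNF and related genes outside the family names. None of the 66 genes tested in these lists was called, and 1, Eda2r, had an unadjusted p of at most 0.05 in limma. Among 17 adaptors and ubiquitin enzymes the median difference in log2(FPKM + 1) was -0.02, and among 16 kinases and factors of the NF-kB pathway -0.04, beside -0.01 over all genes. After rescaling to TPM these medians were 0.06 and 0.03, beside 0.05 over all genes. Cyld, a deubiquitinase that limits NF-kB, was 10.0, 10.3 and 10.2 FPKM in controls and 8.10, 9.99 and 8.90 FPKM in model samples (unadjusted p = 0.146). Ikbkg, the regulatory subunit of the IKK kinase, was 6.55, 6.55 and 6.53 FPKM in controls and 7.17, 7.77 and 7.38 FPKM in model samples (unadjusted p = 0.109). Both had groups that did not overlap, narrowly so for Cyld, and neither passed the test. The groups did not overlap for 1 of the 17 adaptors and ubiquitin enzymes and 3 of the 16 NF-kB genes, beside 10.7% of all genes. The genes with the smallest p in the other direction were Rbck1, a subunit of the linear ubiquitin ligase (unadjusted p = 0.172), and Tab3, which binds the kinase TAK1 (unadjusted p = 0.187).

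All 8 cell death genes tested had a difference below 0, with a median of -0.10 beside -0.01 over all genes. When FPKM were rescaled to TPM 4 were above 0 and 4 below, with a median of -0.03 beside 0.05 over all genes. Of the 4 shedding genes, which release ligands and receptors from the membrane, 2 were above and 2 below 0. The smallest p among those above 0 was that of Rhbdf2, a cofactor of Adam17 (limma difference 0.13, unadjusted p = 0.281), and among those below 0 that of the protease Adam10 (-0.11, unadjusted p = 0.173). Among 16 genes tested that TNF is known to induce, 14 had a difference below 0 and 2 above, with a median of -0.13. After rescaling to TPM 10 were below and 6 above, with a median of -0.15 beside 0.05 over all genes. Of all 19203 genes tested, 10044 had a difference below 0, and 7407 after rescaling to TPM. Icam1, the adhesion molecule that activated endothelium and type 1 cells display, was 71.4, 70.2 and 66.0 FPKM in controls and 81.9, 72.4 and 79.2 FPKM in model samples (unadjusted p = 0.0751). Lif, a cytokine of the IL-6 family, was 0.301, 0.697 and 0.697 FPKM in controls and 0.362, 0.414 and 0.251 FPKM in model samples (unadjusted p = 0.132). Il6 itself was above 0 in 1 library and was not tested.

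Of 5 genes related to the family but outside its names (Ngfr, Eda, Edar, Eda2r and Relt), 4 had a difference below 0. Eda2r, the receptor of the A2 form of ectodysplasin, was 0.0673, 0.170 and 0.293 FPKM in controls and 0.372, 0.311 and 0.346 FPKM in model samples. Every model sample lay above every control, with unadjusted p = 0.0492 in limma and a ratio of means of 0.96 on the log2 scale, just under the 2-fold threshold. Relt, a receptor of lymphoid tissue, was 1.89, 1.87 and 1.76 FPKM in controls and 1.54, 1.70 and 1.58 FPKM in model samples (unadjusted p = 0.275).

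**Figure D5:**
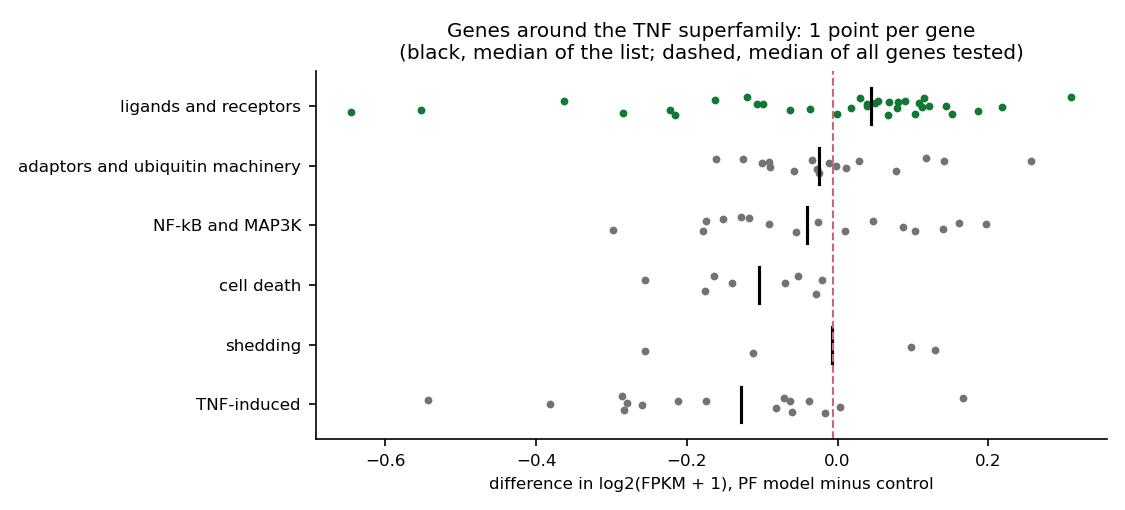
Difference in log2(FPKM + 1), PF model minus control, with 1 point per gene for the members (green) and 5 lists around them (grey). Black ticks are list medians and the dashed line is the median of all genes tested, -0.01. The members spread from -0.65 (Tnfrsf18) to 0.31 (Tnfrsf17), and all 8 cell death genes lie left of 0. After rescaling to TPM 4 of the 8 lie there, and the median of all genes is 0.05.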

How the data were processed

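RNA of 3 control and 3 PF model lungs was grouped by the condition in the labels. The authors trimmed (Cutadapt), mapped (Bowtie2 and Tophat2) and assembled (StringTie) the reads of each library, merged the assemblies and deposited FPKM per transcript from StringTie and Ballgown; the submitters' processing notes also name HISAT2. The authors also deposited the coverage of each transcript, a signal not scaled for library size, from which reads were estimated as coverage times length divided by 150, and raw counts of back-splice reads and SRPBM, a signal scaled by a total per library. The genome build is not given in the sources used here. Columns of all tables were assigned to a sample, and 0 were left over.

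FPKM of all transcripts with a gene name were summed, including fragments inside introns and past gene ends, which belong to the name rather than to the mature mRNA. Gene names with an annotated transcript and FPKM above 0 in at least 3 of 6 libraries were compared with limma 3.58.1 (variance trend, R 4.3.3) on log2(FPKM + 1), fitted over all genes and adjusted by Benjamini-Hochberg. The fold on this scale understates the change of scarce genes. Genes were called at an unadjusted limma p of 0.05 or less when the group means also differed by 1 log2 unit or more. Tests were two-sided, and limma was tried on simulated data. Changes were simulated only in genes with higher mean levels than any called member, so the trial does not cover levels as low as theirs. The members and lists were chosen with earlier results of these data known. Values per sample are given for called members, the 3 of at least 1 FPKM with the smallest p in each direction, the 5 most abundant ligands and receptors, and the TNF, FAS, CD40, BAFF and APRIL, RANK, TWEAK and TRAIL groups; Tnfsf15, Tnfrsf26 transcripts, Tnfrsf1b fragment and isoforms of Tnfsf10, Tnfsf13b, Ltbr, Tnfsf12 and Cd27 were chosen after their values were seen. From the lists, the gene with the smallest p in each direction is named, except for a gene of the cell death list that is not reported here. Pseudocount, filter, sum, scaling and test were varied as alternatives, the replicate number was added as a block, and each library was left out in turn. Figures were drawn with matplotlib 3.10.9 in Python 3.11.15 (pandas 2.3.3, numpy 2.4.6).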

Additional observations from a re-analysis of the deposited data

How the results depend on the processing

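Tnfrsf17 and Tnfrsf9 were called in all 16 alternatives that tested them, with unadjusted p between 0.00196 and 0.0256 for Tnfrsf17 and between 0.00309 and 0.0393 for Tnfrsf9. Neither has a mean of 1 FPKM, so a filter at a mean of 1 FPKM removed both and left 1 of 20 members called in place of 3 of 34, Tnfrsf18. Tnfrsf18 lost its call in 9 of 17 alternatives: without any library other than control sample 3, with a length-weighted sum, with annotated transcripts alone, without intronic and run-on fragments (an alternative added after the data were seen) and with an F test on untransformed FPKM. Leaving out each library in turn gave between 2 and 3 called members. Called member transcripts numbered 2, and 0 with the filter at a mean of 1 FPKM, 1 after rescaling to TPM and 1 with the F test. They ranged from 1 to 6 when each library was left out, with 6 without control sample 3, 4 without control sample 1 or model sample 3 and 1 without model sample 2. The lists of pathway genes had 0 calls, 1 after rescaling to TPM, and between 0 and 1 when each library was left out (1 without control sample 1, control sample 3 or model sample 3). Tnfrsf26 turned from 0.15 to -0.11 with the length-weighted sum, to -0.15 with annotated transcripts alone and to -0.15 without intronic and run-on fragments, since the sum then gives the intronic fragment less weight or none. Rescaling to TPM left 3 members called, but over all genes it moved the split of calls from 132 higher and 161 lower (45.1% higher) to 194 higher and 138 lower (58.4% higher); the cause was not tested. Samples with the same number shared little of their deviation from the group means (correlations of 0.08, 0.03 and -0.07). These values showed no clear pairing by number, and they cannot exclude a weak one. A replicate block gave 4 called members, with Tnfsf15 added (unadjusted p = 0.0478), 2 called member transcripts, 0 called list genes, and 311 called genes in place of 293, and not every sample correlated best with its own number. Tnfsf15 was also called without model sample 1 (unadjusted p = 0.0200). Over all genes, 293 calls became 519 with annotated transcripts alone, 80 with the filter at a mean of 1 FPKM and 200 without the variance trend. The test of circular RNAs and its alternative were not run, since the only one of a member had 2 reads. Of the called members, Tnfrsf17 and Tnfrsf9 rest on at most 23.6 and 34.5 estimated reads in any library, which limits the precision of their levels.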
